A study of Mus musculus with 8 samples.

Results

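The 10 imprinted growth genes H19, Igf2, Dlk1, Meg3, Peg3, Cdkn1c, Igf2r, Grb10, Mest and Plagl1 were followed in the livers of mice lacking Usp39 in hepatocytes. They were taken by symbol from a deposited table of 55385 Ensembl genes, and each of the 10 was found once. Liver RNA was sequenced from 4 Usp39-HKO mice (A469, A470, A471 and A474) and 4 control littermates (A468, A472, A473 and A475), all male, 5 weeks old and fasted for 16 h, with 1 library per mouse. Usp39 encodes a component of the spliceosome. Both groups come from the cross of a Usp39 allele with loxP sites around exon 2 to the albumin promoter Cre line. The Cre acts in hepatocytes and in other cells that have expressed albumin, so the remaining liver cells keep the gene. The labels call the controls WT, and neither the labels nor the methods say whether they carried the floxed allele. Total counts were 8589636 to 10418450 per liver, and a count of 3 corresponds to 0.288 to 0.349 CPM, the count scaled to library size.

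An imprinted gene is expressed mainly from the copy inherited from a single parent, and the chosen copy is set by DNA methylation laid down in the germ line. Many imprinted genes act on fetal growth. They are expressed at high levels in the fetus, and a group of them that includes H19, Igf2, Dlk1 and Meg3 is switched off together in most organs soon after birth. In the liver, H19 and Igf2 are abundant before birth and low in the adult, and the early silencing of H19 runs alongside that of Afp, the fetal albumin. Igf2, Dlk1, Peg3, Mest and Plagl1 are expressed from the paternal copy, whereas H19, Meg3, Cdkn1c, Igf2r and, in most tissues, Grb10 are expressed from the maternal copy.

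The H19 transcript is a long noncoding RNA and also the precursor of a microRNA, miR-675. H19 (ENSMUSG00000000031) lies at chr7:142575529-142578143 on the minus strand of GRCm38, and the miR-675 hairpin lies within one of its exons at chr7:142577064-142577147. The hairpin is shown because the H19 transcript is its precursor, and the capitals mark its 5p and 3p mature arms.
miR-675 hairpin: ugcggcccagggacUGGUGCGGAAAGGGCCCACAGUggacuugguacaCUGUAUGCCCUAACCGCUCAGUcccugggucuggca

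The other microRNAs whose RefSeq positions lie within GENCODE vM21 exons of a member belong to Meg3. They are shown beside the arms of miR-675 to compare their seeds, bases 2 to 8, which are in capitals.
miR-675-5p: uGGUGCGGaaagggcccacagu
miR-675-3p: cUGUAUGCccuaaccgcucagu
miR-770-5p: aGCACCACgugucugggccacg
miR-770-3p: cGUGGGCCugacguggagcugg
miR-1906: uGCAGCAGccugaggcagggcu

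These seeds differ from each other, and each was found in 1 of the 1679 mature mouse microRNAs of the RefSeq table (GRCm38.p6). Mature microRNAs are too short for these libraries, so the counts give the level of the long host transcripts only. miR-483 lies in Igf2 and miR-335 in Mest, in both cases not wholly within an exon.

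Start sites of the members varied widely in CpG, the dinucleotide on which imprints are written. RefSeq promoter windows, from 250 bases before to 50 bases after a start, were found for 8 of the 10 members, and the table had no entry for H19 or Cdkn1c. Of the 15 windows of these 8 genes, 12 held more CpG than the median of 7 over all 32851 windows, and 4 held more than at least 80% of all windows did. The window of the upstream Grb10 start, at chr11:12037371-12037670 on the minus strand, held 45, the most of any member, and is shown with each CpG in capitals because Grb10 was, beside H19, the member whose livers were separated most clearly by genotype.
Grb10 promoter: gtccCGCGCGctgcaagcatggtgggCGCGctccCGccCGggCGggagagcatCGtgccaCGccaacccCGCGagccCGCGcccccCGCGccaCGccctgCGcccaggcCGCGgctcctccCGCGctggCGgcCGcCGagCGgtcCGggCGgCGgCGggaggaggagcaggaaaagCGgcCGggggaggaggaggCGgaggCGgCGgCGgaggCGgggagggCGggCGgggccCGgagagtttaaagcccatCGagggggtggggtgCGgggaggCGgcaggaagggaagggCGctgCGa

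The window of Igf2r held 34 CpG, and the downstream Meg3 window, with 1, held the fewest. No methylation was measured in these livers.

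Before the members, the deleted gene itself was examined. Usp39, at chr6:72318678-72345184 on the minus strand, had 9.35, 10.4, 8.76 and 9.78 FPKM (fragments scaled to exon length and library size) in the control livers, in the order A468, A472, A473 and A475. In the Usp39-HKO livers it had 8.37, 8.63, 8.70 and 8.07 FPKM, in the order A469, A470, A471 and A474, so the groups did not overlap but lay close together. The count covers all exons and not the deleted exon alone. The log2 fold change was -0.41 ± 0.11 (SE, adjusted p = 0.0212, edgeR quasi-likelihood test, n = 4 per group), and without A474 or without A475 the adjusted p was 0.0615 and 0.0547. The call was also lost with no scaling beyond library size (log2 fold change -0.18, adjusted p = 0.247) and with limma on log2(FPKM + 1) (-0.16, adjusted p = 0.168) or log2(FPKM + 0.1) (-0.18, adjusted p = 0.164). Both orders of mice are used for all values below. Fold changes are Usp39-HKO relative to control, come from edgeR with TMM scaling, and are set against the median gene. FPKM values are not: the median tested gene was 0.112 to 0.279 higher in the Usp39-HKO livers on the log2(FPKM + 1) scale, and with no scaling beyond library size the median log2 fold change of all tested genes was 0.24 instead of 0.00. The TMM factors were 0.911 to 0.940 in the controls and 1.01 to 1.19 in the Usp39-HKO livers, highest in A474. Scaling therefore lowers the Usp39-HKO livers relative to the controls. Ranks and overlaps of livers given in FPKM leave these factors out and can differ after scaling.

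Of the 10 members, 7 had at least 0.5 FPKM in at least 4 livers and entered the fit with 14340 genes in all, and these 7 reached that level in all 8 livers. Igf2, Dlk1 and Meg3 did not pass the filter. H19 and Grb10, 2 of the 7, were called between the genotypes at an adjusted p under 0.05, beside 22.5% of all tested genes (10.9% higher and 11.6% lower). The members were chosen with results of this comparison known, so nothing is read from that count and their fold changes are given as a description, without p. Of the 7 tested members, 5 had a log2 fold change above 0 and 2 below, with a median of 0.70 beside 0.00 for all tested genes.

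**Figure D1:**
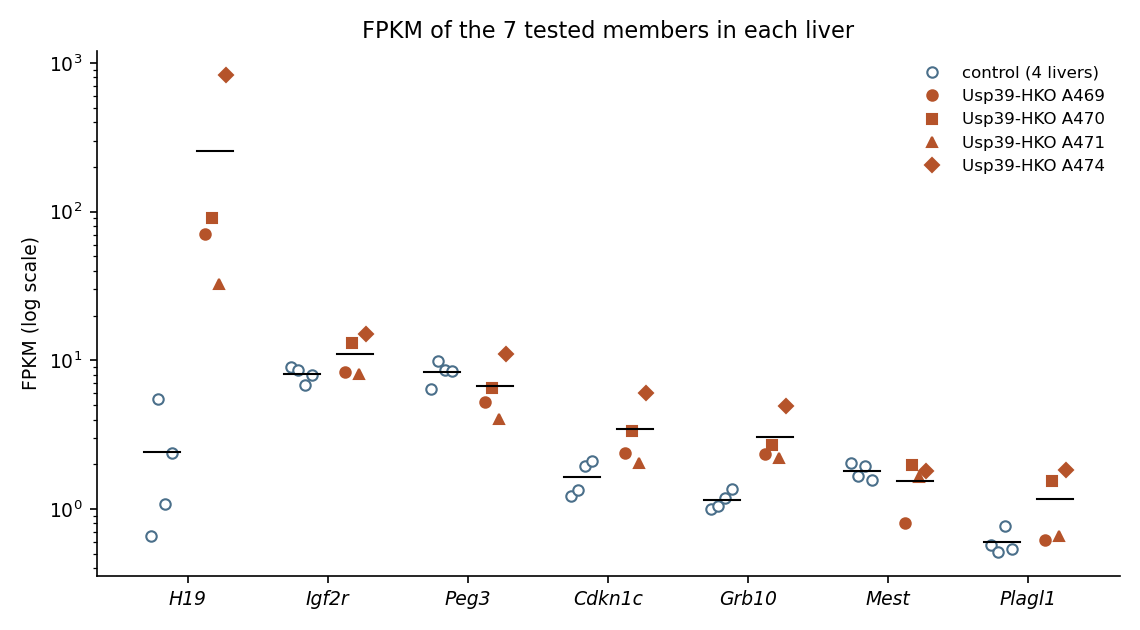
FPKM (log axis) of the 7 tested members in each of the 8 livers. Open circles are the 4 control livers, filled symbols the 4 Usp39-HKO livers by mouse, and horizontal lines the group means. The H19 values of the Usp39-HKO livers, 32.5 to 835, lie above all control values, and A474 is the highest Usp39-HKO liver for every gene shown but Mest.

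Among the noncoding RNAs, H19 was low in control liver and high in every Usp39-HKO liver. Its FPKM was 0.664, 5.54, 1.09 and 2.38 in the controls, and 70.5, 90.1, 32.5 and 835 in the Usp39-HKO livers. The groups did not overlap. They were apart for 28.7% of all tested genes, with Usp39-HKO higher for 23.9% and lower for 4.81%. The lowest Usp39-HKO liver was well above the highest control, A472. The counts behind these values were 15, 135, 23 and 61 in the controls and 1685, 2259, 764 and 19477 in the Usp39-HKO livers. Ranked by FPKM among all genes of each liver, H19 stood between 5890 and 13207 in the controls, at 713, 551 and 1501 in A469, A470 and A471, and at 37 in A474, where it took 0.205% of all counts. H19 had the highest FPKM of the 10 members in each of the 4 Usp39-HKO livers. In the controls this place was held by Igf2r or Peg3.

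The 4 Usp39-HKO livers were far from alike. Their highest H19 level was 25.7 times the lowest, whereas the controls spanned 8.34 times. The mean was 257 ± 386 FPKM (SD, n = 4) in Usp39-HKO and 2.42 ± 2.2 in control, and without A474 the Usp39-HKO mean was 64.4 ± 29.2 (n = 3). Its log2 fold change was 6.39 ± 1.08 (SE), the 6th largest of the 14340 tested genes, and 4.52 ± 0.54 without A474. Leaving out any other liver gave values up to 7.19. In bulk tissue, a higher level per cell and more cells of an expressing type cannot be told apart.

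**Figure D2:**
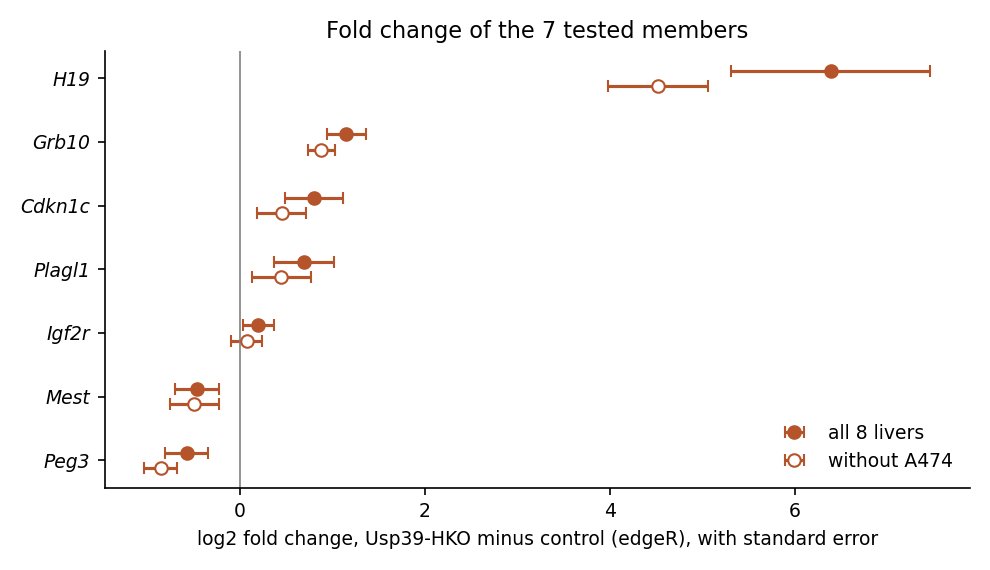
Log2 fold change (x axis, edgeR, Usp39-HKO relative to control) of the 7 tested members with its standard error, for all 8 livers (filled) and without A474 (open). H19 moves from 6.39 to 4.52 when A474 is left out, and no member changes the side of 0 on which it lies.

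Meg3, the maternally expressed noncoding RNA of the Dlk1 domain (chr12:109541001-109571726, plus strand), was high in 2 of the 4 Usp39-HKO livers. Counts were 14, 11, 17 and 21 in the controls and 14, 146, 15 and 196 in the Usp39-HKO livers. A470 and A474 were thus above all controls, while A469 and A471 lay among them. In FPKM the controls ranged from 0.0613 to 0.111, and A470 and A474 reached 0.792 and 1.14. Because of these low levels Meg3 was tested only in the fit without a filter, where its log2 fold change was 2.19 ± 0.50.

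Rian, a noncoding RNA transcribed downstream of Meg3 in the same direction (chr12:109603940-109661716) and known as a host of small nucleolar RNAs, followed the same livers. Its counts were 8, 2, 3 and 7 in the controls and 7, 119, 12 and 214 in the Usp39-HKO livers. In the fit without a filter its log2 fold change was 3.74 ± 0.66 (adjusted p = 0.000159, edgeR). Mirg, the microRNA host further downstream, had 0 or 1 count per control and 1, 5, 1 and 2 in the Usp39-HKO livers. Rtl1, the paternally expressed gene antisense to this region, had 1 count in A470 and none elsewhere. Dio3, the deiodinase at the end of the domain, had 0 to 8 counts per liver, the 8 in control A475.

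Among the growth factors, Igf2, the fetal ligand of the IGF1 receptor and partner of H19 (chr7:142650766-142666816, minus strand), did not exceed the floor of 3 counts in any liver. It had 1, 0, 1 and 0 counts in the controls and 1, 0, 0 and 3 in the Usp39-HKO livers, which is 2 against 4 in all. This held in A474 too, where H19 alone had 19477 counts. Of its exon bases, 62.8% are shared on the same strand with the overlapping Gm49394, which had no count in any liver. Reads that fell on both genes could have been discarded in counting, and the counting rule for such reads is not given in the sources used here. Its antisense transcript, Igf2os, had 1 count, in A474.

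Dlk1, a membrane and secreted protein of hepatoblasts (chr12:109452823-109463336, plus strand), was near the floor in all livers but A474. It had 2, 1, 1 and 0 counts in the controls and 2, 5, 1 and 33 in the Usp39-HKO livers. A474 was alone at 0.615 FPKM, and the next highest liver, A470, had 0.0867. The log2 fold change of 2.87 ± 0.89 in the fit without a filter therefore describes a single liver.

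Igf2r, the receptor that carries IGF2 to lysosomes (chr17:12682406-12769664, minus strand), differed little. Its FPKM was 9.04, 8.67, 6.84 and 7.98 in the controls and 8.41, 13.01, 8.05 and 15.0 in the Usp39-HKO livers. A470 and A474 were again above all controls and A469 and A471 among them. This gave a log2 fold change of 0.20 ± 0.17. Airn, the noncoding RNA that starts within Igf2r on the opposite strand (chr17:12741311-12860136), is not a member and was tested. It had 0.636, 0.938, 0.554 and 0.519 FPKM in the controls and 1.02, 2.40, 0.884 and 2.53 in the Usp39-HKO livers. Airn rose by a log2 fold change of 1.11 ± 0.35 (adjusted p = 0.0394, edgeR). That call was lost without A468, A470, A473, A474 or A475, with adjusted p from 0.0878 to 0.113, and with limma on log2(FPKM + 1) (0.65, adjusted p = 0.0561). The strand setting of the counting is not stated, so reads from Airn and from unspliced Igf2r cannot be told apart.

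**Figure D3:**
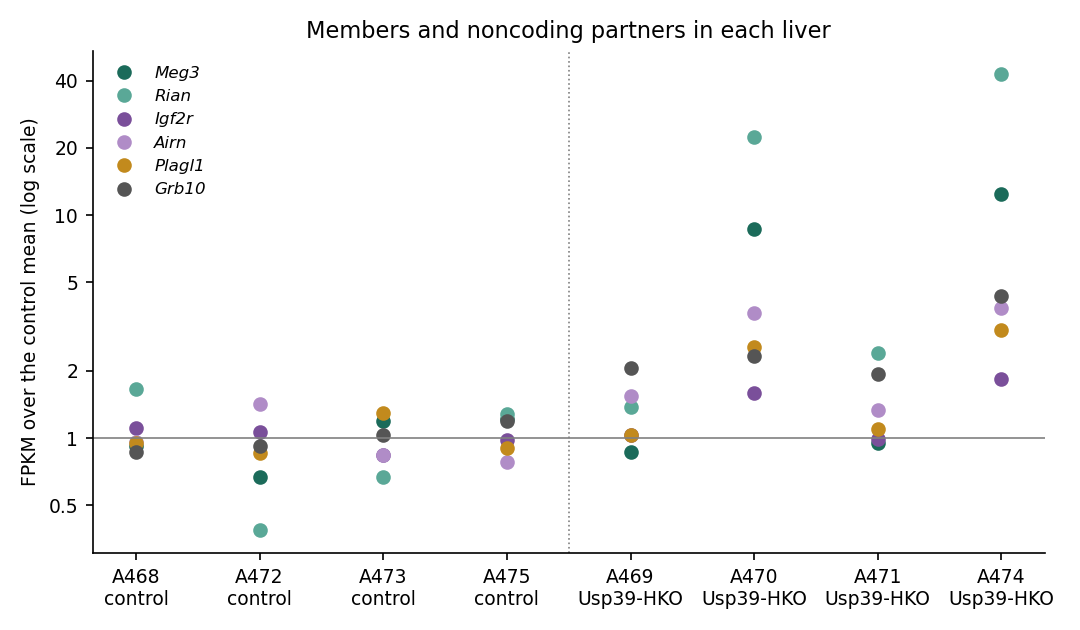
FPKM divided by the mean of the 4 control livers (y axis, log scale) for Meg3, Rian, Igf2r, Airn, Plagl1 and Grb10 in each liver (x axis), with a line at 1. A470 and A474 stand above the controls for each of these genes, with Rian at 22.3 and 43.1 times and Igf2r at 1.60 and 1.84 times the control mean. Grb10 alone is above all controls in A469 and A471 by a wide margin, at 2.05 and 1.93 times.

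Among the genes that restrain growth, Grb10 separated the genotypes and Cdkn1c nearly did. Grb10 is an adaptor that binds the insulin and IGF1 receptors and dampens their signal (chr11:11930508-12038683, minus strand). It had 0.995, 1.05, 1.18 and 1.36 FPKM in the controls and 2.35, 2.69, 2.21 and 4.96 in the Usp39-HKO livers, so the groups did not overlap. Its log2 fold change was 1.15 ± 0.21, and 0.88 ± 0.14 without A474. It held rank 644 among the 14340 fold changes. Ddc, its imprinted neighbour, went the other way and fell by 0.56 ± 0.15 on the log2 scale (adjusted p = 0.0218, edgeR), a call that was lost without A468 (adjusted p = 0.0617), without A474 (adjusted p = 0.0639) and with no scaling beyond library size (adjusted p = 0.118).

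Cdkn1c, the cyclin-dependent kinase inhibitor p57 (chr7:143458339-143461050, minus strand), had 1.23, 1.34, 1.94 and 2.12 FPKM in the controls. It had 2.37, 3.37, 2.06 and 6.05 in the Usp39-HKO livers, and A471 alone lay within the control range. Its fold change on the log2 scale was 0.80 ± 0.31, and 0.46 ± 0.26 without A474. The antisense Gm44732, which covers 30.7% of its exon bases, had no count. Kcnq1ot1, the noncoding RNA of the same domain, had 207, 91, 75 and 98 counts in the controls and 77, 135, 78 and 169 in the Usp39-HKO livers, which overlapped (log2 fold change -0.37 ± 0.25, adjusted p = 0.418, edgeR without a filter). Slc22a18, a transporter next to Cdkn1c, fell by 0.46 ± 0.12 on the log2 scale (adjusted p = 0.0169, edgeR). That call was lost without A475 (adjusted p = 0.0538) and with no scaling beyond library size (adjusted p = 0.11).

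Of the zinc finger proteins, Plagl1, a transcription factor that has been placed upstream of other imprinted genes (chr10:13060504-13131694, plus strand), had 0.571, 0.516, 0.774 and 0.540 FPKM in the controls. In the Usp39-HKO livers it had 0.619, 1.54, 0.657 and 1.83. As for Meg3 and Igf2r, A470 and A474 were above all controls and A469 and A471 within their range. On the log2 scale the fold change was 0.70 ± 0.32, and 0.45 ± 0.32 without A474.

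In FPKM, again without the TMM factors, Peg3 (chr7:6703892-6730431, minus strand) was lower in 2 of the 4 Usp39-HKO livers than in any control. Its FPKM was 6.38, 9.85, 8.68 and 8.54 in the controls and 5.24, 6.55, 4.06 and 11.1 in the Usp39-HKO livers, where A474 was the highest of all 8 livers and A471 the lowest. Its log2 fold change of -0.57 ± 0.23 became -0.86 ± 0.18 without A474. Its neighbours Usp29 and Zim1 were almost silent. Usp29 had no count in the controls and 0, 2, 2 and 5 in the Usp39-HKO livers. Zim1 had 3, 3, 4 and 1 in the controls and 3, 12, 2 and 20 in the Usp39-HKO livers, again highest in A474 and A470.

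Mest, a predicted hydrolase of the fetal mesoderm (chr6:30723547-30748465, plus strand), overlapped between the groups. It had 2.04, 1.66, 1.95 and 1.56 FPKM in the controls and 0.809, 1.96, 1.65 and 1.79 in the Usp39-HKO livers. In FPKM, which leaves out the TMM factors, A469 was the lowest liver and the other 3 lay within the control range. Over all livers the log2 fold change was -0.46 ± 0.24. Copg2, which overlaps 23.1% of the exon bases of Mest on the other strand, fell by 0.57 ± 0.15 on the log2 scale (adjusted p = 0.0210, edgeR). Copg2 was no longer called without A468 (adjusted p = 0.0651), without A473 (adjusted p = 0.0665) or with no scaling beyond library size (adjusted p = 0.166).

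The members did not share a single pattern over the livers. A474 was the highest of the 4 Usp39-HKO livers for 9 of the 10 members, and for 6 of the 7 tested, beside 45.7% of all tested genes. A470 and A474 were the 2 highest of all 8 livers for 7 members, namely H19, Dlk1, Meg3, Cdkn1c, Igf2r, Grb10 and Plagl1. Of these, 5 were among the 7 tested, beside 21.3% of all tested genes. Both were counted after the values were seen. Among 34 other imprinted genes tested, A470 and A474 were the 2 highest for 9, or 26.5%.

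Other imprinted genes were called about as often as the rest of the transcriptome. Of 66 listed genes, 65 were in the table, 34 were tested and 8, or 23.5%, were called, beside 22.5% of all tested genes. Of these, 4 rose and 4 fell. With no scaling beyond library size 8 were called too, but 7 of them higher and 1 lower. Leaving out 1 liver gave 4 to 9 calls. Without A468, 4 were called, or 11.8%, beside 15.8% of all tested genes. Without A473, A474 or A475, 5 were called, or 14.7%, beside 13.5%, 14.6% and 14.2% of all. Ano1, a chloride channel imprinted in the placenta, had the largest change, from 0.615 ± 0.0852 to 2.01 ± 1.1 FPKM (SD, n = 4 per group; log2 fold change 1.44 ± 0.31, adjusted p = 0.00766, edgeR). Dcn, the proteoglycan decorin of stellate cells and fibroblasts, rose from 41.3 ± 2.67 to 87.5 ± 20.7 FPKM (log2 fold change 0.83 ± 0.14, adjusted p = 0.00224). Casd1, a sialic acid acetyltransferase, fell from 10.4 ± 1.73 to 7.56 ± 1.38 FPKM (log2 fold change -0.71 ± 0.15, adjusted p = 0.00691), a call lost in both limma fits (adjusted p = 0.0632 and 0.0644). Ampd3, an AMP deaminase of blood cells, rose by a log2 fold change of 0.79 ± 0.21 (adjusted p = 0.0215), a call lost without A468, A473, A474 or A475 with adjusted p from 0.0521 to 0.0671.

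Genes whose products receive, bind or regulate IGF2 were called in numbers that depended on the fit. Of the 15 tested genes of this list, 3, or 20%, were called, 1 higher and 2 lower, beside 22.5% of all tested genes. Without A474 the count was again 3, beside 14.6% of all, and without A471 it was 5, or 33.3%, beside 17.3% of all. Insr, the insulin receptor, fell from 22.8 ± 2.91 to 15.9 ± 1.93 FPKM (log2 fold change -0.75 ± 0.13, adjusted p = 0.00313, edgeR). Igfbp7, a secreted binding protein, rose from 96.3 ± 13.6 to 190.0 ± 39.9 FPKM (log2 fold change 0.73 ± 0.14, adjusted p = 0.00472). Igfbp4, another binding protein, fell by 0.60 ± 0.17 on the log2 scale (adjusted p = 0.0248), and its call was lost without A468, A470, A472, A473 or A475, with adjusted p from 0.0508 to 0.0658, with no scaling beyond library size (adjusted p = 0.0560) and in both limma fits (adjusted p = 0.0592 and 0.0588). With no scaling beyond library size 8 genes, or 53.3%, were called, 7 higher and 1 lower, beside 29.4% of all. DESeq2 called 6, or 40%, with 3 in each direction, beside 24.4% of all. Igf1r, the signalling receptor of IGF2, was not called (log2 fold change 0.42 ± 0.21, adjusted p = 0.182).

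Of 29 tested genes that maintain imprints, bind the imprinting control region or regulate H19 and Afp after birth, 7 were called, or 24.1%, beside 22.5% of all tested genes, and each of these 7 was lower. With no scaling beyond library size, 4 of the 7 calls were higher and 3 lower, so the common direction rests on the scaling. Median-ratio scaling gave 1 higher and 6 lower, DESeq2 1 higher and 7 lower, and a mean of at least 5 FPKM 1 in each direction. The count was 3 without A468 or A473, or 10.3%, beside 15.8% and 13.5% of all tested genes. It was 4 without A470, A471, A474 or A475, or 13.8%, beside 21.4%, 17.3%, 14.6% and 14.2% of all. The calls in these fits were all lower. Without A469, 1 was higher and 4 lower, or 17.2%, beside 24.5% of all. Ctcfl, the germline relative of CTCF, fell from 3.60 ± 0.907 to 1.86 ± 0.548 FPKM (log2 fold change -1.18 ± 0.26, adjusted p = 0.00842, edgeR). Dnmt3b, a de novo DNA methyltransferase, fell by 0.81 ± 0.18 on the log2 scale (adjusted p = 0.00888). Zhx3, a zinc finger and homeobox protein related to Zhx2, fell by 0.66 ± 0.11 (adjusted p = 0.00267). These 3 calls held with each liver left out in turn and under each scaling tried.

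Zhx2, known as the repressor of Afp, Gpc3 and H19 in mouse liver after birth, was lower on average. It had 4.62, 4.75, 4.78 and 5.22 FPKM in the controls and 2.44, 4.93, 4.30 and 3.66 in the Usp39-HKO livers. In FPKM without the TMM factors, A469 was the lowest and A470 lay within the control range. The log2 fold change was -0.57 ± 0.18 (adjusted p = 0.0362, edgeR). The call was lost without A468, A469, A472, A473, A474 or A475, with adjusted p from 0.0554 to 0.0954, and with no scaling beyond library size (log2 fold change -0.33, adjusted p = 0.193). Zbtb20, another repressor of Afp, was not called (log2 fold change -0.08 ± 0.22, adjusted p = 0.833), nor was Ctcf, the insulator protein of the H19 control region (log2 fold change -0.11 ± 0.10, adjusted p = 0.484). Zbtb20 changed sign with the scaling. Kdm1b, Ehmt2 and Yy1, the remaining called genes, had log2 fold changes of -0.46, -0.32 and -0.28 with adjusted p of 0.0364, 0.0432 and 0.0487. These 3 calls were lost when A468, A473 or A474, among others, was left out, with the highest adjusted p at 0.107, 0.108 and 0.131, and with no scaling beyond library size.

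Afp and Gpc3, the fetal genes silenced alongside H19 after birth, were highest in the same liver as H19. Afp had 0.906, 0.779, 1.07 and 0.826 FPKM in the controls and 1.41, 3.0, 2.65 and 50.9 in the Usp39-HKO livers, without overlap. It rose by a log2 fold change of 3.68 ± 1.04 (adjusted p = 0.0263, edgeR), and by 1.19 without A474. The call was lost without A468, A472, A473 or A475, with adjusted p from 0.0616 to 0.0743, and with limma on log2(FPKM + 1) (log2 fold change 1.79, adjusted p = 0.131) or log2(FPKM + 0.1) (2.35, adjusted p = 0.0892). Gpc3, a glypican of the fetal liver, had 1.21, 0.938, 1.60 and 1.32 FPKM in the controls and 2.30, 3.35, 1.29 and 16.2 in the Usp39-HKO livers. It was not called (log2 fold change 1.89 ± 0.64, adjusted p = 0.0539), and without A474 its log2 fold change was 0.68. It passed without A469 (adjusted p = 0.0291) and without A471 (adjusted p = 0.0208). In both genes A474 stood far above the other 3 Usp39-HKO livers.

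Genes near the members in the genome were also examined. Of 351 genes that start within 500 kb of a member, 61 were tested and 19 called, or 31.1%, with 8 higher and 11 lower, beside 22.5% of all tested genes. Without A474, 14 were called, or 23.0%, beside 14.6% of all. With no scaling beyond library size, 19 were called, 17 of them higher, beside 29.4% of all. Airn, Copg2, Ddc and Slc22a18 were counted both among these neighbours and among the other imprinted genes, so the counts of these lists share calls. Of the 6 tested genes within that distance of H19, 2 were called, both higher. Dusp8, a phosphatase of stress kinases that starts 482300 bases from H19, had 1.19 ± 0.524 FPKM in control and 5.50 ± 2.32 in Usp39-HKO (log2 fold change 1.96 ± 0.33, adjusted p = 0.00244, edgeR). Lsp1, a leukocyte protein 117334 bases away, rose from 0.886 ± 0.173 to 1.86 ± 0.136 FPKM (log2 fold change 0.83 ± 0.18, adjusted p = 0.00850). Near Igf2r, Plg, which encodes plasminogen, fell by 0.98 ± 0.18 on the log2 scale (adjusted p = 0.00401). Ikzf1, a lymphoid factor near Grb10, rose by 0.62 ± 0.15 (adjusted p = 0.0135), and Tnfrsf23, a decoy receptor near Cdkn1c, by 1.40 ± 0.33 (adjusted p = 0.0112). Of the noncoding neighbours, B230208H11Rik near Plagl1 rose by 1.73 ± 0.41 (adjusted p = 0.0125) and Gm34667 near Meg3 fell by 1.31 ± 0.26 (adjusted p = 0.00520).

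The 5 genes whose profile over the 8 livers was nearest to that of H19 were genes of other kinds. Likeness was measured as the Euclidean distance between log2 CPM values with TMM scaling, centred on the control mean, over the 8 livers. The profile of H19 itself had a length of 12.1 on this scale. The nearest were Gldn at a distance of 3.76, Cyp3a41a at 3.88, Gm3776 at 4.09, Gsta1 at 4.24 and Sult2a2 at 4.36. Cyp3a41a is a cytochrome P450 that is predominant in female mouse liver, Gsta1 is a glutathione transferase and Sult2a2 a sulfotransferase. Gldn had 0.0206 to 0.0866 FPKM in the controls and 1.13, 12.8, 3.17 and 8.76 in the Usp39-HKO livers. Cyp3a41a had 0, 1.52, 0 and 0.140 FPKM in the controls and 18.1, 19.8, 9.87 and 12.1 in the Usp39-HKO livers. Sult2a2 had 0.147, 2.04, 0.157 and 0.259 FPKM in the controls and 315, 67.1, 3.39 and 155 in the Usp39-HKO livers. Control A472 was the highest control for Cyp3a41a and Sult2a2, as it was for H19. The genes were picked by their levels over these same livers, so such shared places are part of the choice. Gm3776 had 0 to 0.133 FPKM in the controls and 2.35, 10.7, 14.9 and 23.2 in the Usp39-HKO livers. Gsta1 had 0.1004 to 0.456 FPKM in the controls and 3.55, 21.3, 16.1 and 37.4 in the Usp39-HKO livers. Gldn, Gm3776 and Gsta1 passed the filter only through the 4 Usp39-HKO livers. Control counts were 2, 4, 1 and 1 for Gldn, 0, 1, 1 and 0 for Gm3776, and 4, 2, 1 and 1 for Gsta1. These lie near or below the floor of 3 counts, so differences among the controls were not detectable for these genes. A474, the highest liver for H19, was also the highest for Gm3776 and Gsta1, whereas Gldn and Cyp3a41a were highest in A470 and Sult2a2 in A469. Cyp3a41a, Gsta1 and Gm3776 have close paralogs, and reads could have been split or lost between them.

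Markers of stellate cells, cholangiocytes and macrophages were mostly called higher in the Usp39-HKO livers, whereas those of other cell types were not. The counts below stand beside 22.5% of all tested genes called, 10.9% higher and 11.6% lower. Of 10 stellate cell and fibroblast markers, 8 were called, all higher (Lum, Col1a1, Col3a1, Col1a2, Pdgfrb, Rgs5, Reln and Lrat), and their summed FPKM was 43.0 to 55.1 in the controls and 66.3, 164, 134 and 183 in the Usp39-HKO livers. Of 6 cholangiocyte markers, the 4 tested (Spp1, Epcam, Krt19 and Sox9) were all called higher, and the sum was 26.4 to 28.7 in the controls and 64.2, 139, 149 and 286 in the Usp39-HKO livers. Both lists were highest in A474 and lowest among the Usp39-HKO livers in A469. Of 6 macrophage markers 5 were called higher (Marco, Cd68, Vsig4, Csf1r and Clec4f), with sums of 192 to 247 in the controls and 331, 371, 337 and 525 in the Usp39-HKO livers. Of 6 hepatocyte markers 2 were called lower (Serpina1a and Cps1), and their sums overlapped, at 13941 to 15850 in the controls and 12980 to 16786 in the Usp39-HKO livers.

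**Figure D4:**
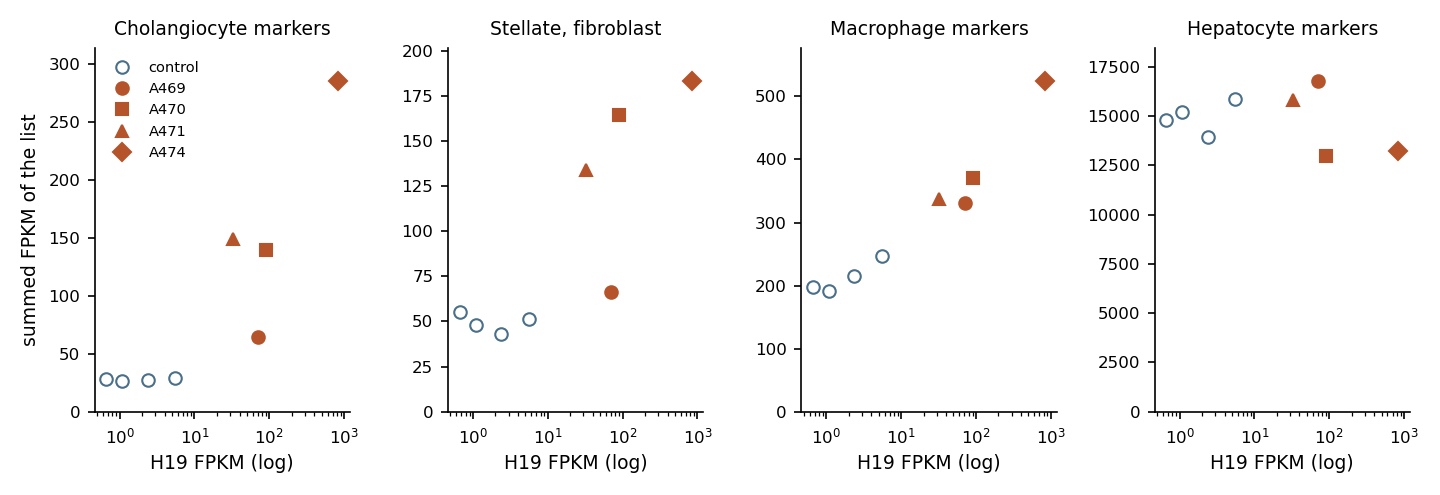
Summed FPKM of 4 marker lists (y axes, from 0) against H19 FPKM (x axes, log scale) in each liver. Open circles are control livers and filled symbols the Usp39-HKO livers by mouse. A474 has the highest H19 and the highest sums of cholangiocyte, stellate and macrophage markers, at 286, 183 and 525, while the hepatocyte sums of the 2 genotypes overlap.

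Of 6 proliferation genes 5 were called higher (Ccnb1, Cdk1, Birc5, Mki67 and Top2a), with sums of 10.98 to 15.9 FPKM in the controls and 29.4 to 41.8 in the Usp39-HKO livers. Of 6 endothelial markers 2 were called lower (Lyve1 and Stab2), and the sums were 97.5 to 109 and 102 to 106 FPKM. Of 6 erythroid genes the 4 tested (Hbb-bt, Alas2, Hba-a1 and Hbb-b1) were called lower, with sums of 322 to 683 and 144 to 325 FPKM. No marker of the stellate, cholangiocyte, macrophage or hepatocyte lists was at 0 in any liver, and the labelled tissue was borne out by the hepatocyte list in all 8. The part of these cell types in the levels of the members was not tested.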

How the data were processed

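Liver RNA of 4 Usp39-HKO and 4 control mice was sequenced as paired reads, with 1 library per mouse (kit: NEB Next Ultra). Per the methods, HISAT2 placed the reads on mm10, samtools sorted the alignments and featureCounts gave each gene its count; Trim Galore 0.6.1, FastQC 0.11.9 and Picard are named in the submitters' processing notes. The annotation release, strand setting and handling of reads on several genes are not given in the sources used here. The deposited table holds raw counts, exon lengths and FPKM that the authors computed from them; counts, lengths and totals gave back 100% of the positive FPKM values within 0.1%. Its columns of the authors' own DESeq2 comparison (a mean normalized signal, log2 fold changes, standard errors and statistics as scores, and p-values) were not used as results. Of 55699 rows, 314 repeated a gene with another symbol and were dropped.

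Counts were tested with edgeR 4.0.16 (quasi-likelihood test, TMM scaling, R 4.3.3) with Benjamini-Hochberg adjustment over the 14340 genes with at least 0.5 FPKM in at least 4 livers, and genes were called at an adjusted p under 0.05. A standard error is the size of the log2 fold change divided by the square root of F. The script was tested on simulated data. Alternatives used DESeq2 1.42.0, limma 3.58.1 on log2(FPKM + 1) and log2(FPKM + 0.1), other scalings, other filters, the study's cutoff (unadjusted p under 0.05 and a log2 fold change beyond 0.5) and each liver left out. The members and lists were chosen with earlier results of these data known. Named genes were the members, Usp39, Afp, Gpc3, Zhx2, Zbtb20, the noncoding, antisense or neighbouring partners of members, up to 8 called genes of each pathway list with the largest fold change, and the 5 nearest to H19; values of Ctcf, Igf1r and Gm44732 were added after they were seen. Positions are GENCODE vM21 (GRCm38), in which 99.1% of gene lengths equal the deposited ones, whose release was not stated. Deposited and vM21 lengths differed for Peg3 (13616 and 13324 bases), Rian (31981 and 18234), Airn (4623 and 3597) and Ano1 (6322 and 6244). The exons counted for these genes are therefore not those of vM21. Peg3os was not analysed here. Nothing says that the mice came from separate litters, so p-values measure the spread between these mice. Replicate libraries differed by more than sampling noise (chi-square per degree of freedom 7.02 to 36.4).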

Additional observations from a re-analysis of the deposited data

Results flagged for a closer look

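The 45 named genes were examined in each group of 4 livers for a liver far from the other 3. Of 90 such groups 13 had one. The rule flags about 1 in 20 groups of independent normal values. FPKM need not be normal, the genes share the same livers and several were chosen by their values. No excess is therefore read from the count.

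In A474 this held for H19 (835 FPKM, the other Usp39-HKO livers 32.5 to 90.1), Dlk1 (0.615 FPKM), Afp (50.9 FPKM), Gpc3 (16.2 FPKM), Ampd3 (1.29 FPKM) and Ikzf1 (3.43 FPKM), each high, and for Slc22a18, which was low at 33.3 FPKM beside 40.5 to 40.8. In A469 Plg was high at 423 FPKM, beside 271 to 290, and Yy1 was low at 13.3 FPKM.

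Among the controls, A472 was high for Cyp3a41a (1.52 FPKM, the other controls 0 to 0.140) and Sult2a2 (2.04 FPKM, the others 0.147 to 0.259) and low for Zhx3 at 7.76 FPKM. Yy1 was low in A475 at 14.9 FPKM. No cause was tested for any of these.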

How the results depend on the processing

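All 10 members kept the sign of their fold change under each alternative that could be fitted; Igf2, Dlk1 and Meg3 could be fitted only without a filter. Of the values for members, 100 moved by less than 1 SD between replicate livers on the log2 CPM scale and 1 by more, H19 without A474 (4.52). Peg3 was called without a filter and without A474, Cdkn1c with no scaling beyond library size and Plagl1 without A469, and Igf2r ran from 0.07 to 0.45. Dlk1 and Meg3 were also called in the fit without a filter, beside 13.2% of all genes in that fit. Nothing is read from these calls either. Of the values for other named genes 395 stayed, 91 were no longer called, 4 became called (all Gpc3) and 6 changed sign, all for Zbtb20: 0.17 with no scaling beyond library size, 0.17 and 0.21 with limma on log2(FPKM + 1) and log2(FPKM + 0.1), 0.0011 with a mean of at least 5 FPKM, 0.22 without control A468 and 0.0064 without A469, in a range from -0.20 to 0.22 over the livers left out. DESeq2 gave Afp no adjusted p. Slc22a18, Ddc, Copg2, Zhx2, Kdm1b, Ehmt2 and Yy1 were also no longer called in both limma fits, with adjusted p from 0.0995 to 0.751. With a mean of at least 5 FPKM, 1595 of 6672 tested genes were called in all, or 23.9%, instead of 3225. The lists gave 4 of 18 other imprinted genes, or 22.2%, and 5 of 9 IGF2 partners, or 55.6%. Regulators gave 2 of 18, or 11.1%, and neighbours 5 of 26, or 19.2%. In the main fit these list counts were 8, 3, 7 and 19, with more genes tested. IGF2 partners called were 8 of 15 without scaling beyond library size, or 53.3%, beside 29.4% of all tested genes. They were 6, or 40%, with DESeq2 or either limma fit, beside 24.4%, 25.6% and 25.7% of all. Limma on log2(FPKM + 1) called 5 other imprinted genes, or 14.7%, beside 25.6% of all tested genes. The study's cutoff called 4 regulators, or 13.8%, beside 21.7% of all. Neighbours within 100 kb gave 2 calls among 14 tested, or 14.3%, beside 22.5% of all. The cause was not tested beyond these settings. Leaving out each liver gave 1931 (13.5%, without A473) to 3510 calls in all (24.5%, without A469), 2043 without A475 and 2094 without A474. Other imprinted genes gave 4 to 9 calls (11.8% to 26.5%) and IGF2 partners 2 to 5 (13.3% to 33.3%). Regulators gave 3 to 5 (10.3% to 17.2%) and neighbours 13 to 19 (21.3% to 31.1%). Other scalings split the calls differently: with none beyond library size 3525 were higher and 696 lower, instead of 1561 and 1664. No paired analysis was possible because the labels give the mice no shared replicate numbers. With at most 3 counts per liver for Igf2, and at most 5 for Dlk1 outside A474, differences between the other livers were not detectable at this depth.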
